A study of Homo sapiens with 12 samples.

Results

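Messenger RNA of 10 genes of the dense-core granule and its prohormone processing machinery was measured in H82 and H211, a pair of established human small cell lung cancer cell lines, with and without inhibition of LSD1. The genes were CHGA, CHGB, SCG2, SCG3, SCG5, PCSK1, PCSK2, CPE, CALCA and VGF, taken by symbol, and all 10 were found among the 56508 gene symbols of the deposited table. ORY-1001 is a small-molecule inhibitor of LSD1, an enzyme that removes methyl groups from histones. The 4 groups, each of 3 libraries, were H82 with vehicle (given as PBS in the labels), H82 with ORY-1001 at 1 µM, H211 with vehicle and H211 with ORY-1001 at 1 µM. Both lines are labelled WT, and every group grew in the same medium. The sample labels give 7 days of treatment and the treatment protocol gives 10 days, and this was not settled here. Each background is represented by 1 cell line, and nothing says that the replicates were separate cultures, so the p-values below measure only the spread between these libraries, which may be technical. Levels are in deposited TPM, a unit that divides reads by transcript length, that had been rescaled between libraries, so they can be compared between genes. In bulk RNA such as this, fewer cells that express a gene and less RNA per cell cannot be told apart.

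Dense-core granules store peptide hormones and neuropeptides in endocrine cells and neurons until a stimulus releases them. The granins (CHGA, CHGB, SCG2, SCG3 and VGF) aggregate in the acidic Golgi and help the granule form, while the convertases PCSK1 and PCSK2 cut the prohormones at basic residues and carboxypeptidase E (CPE) trims the exposed ends. Small cell lung cancer is typically neuroendocrine, and chromogranin A, the product of CHGA, is used as a marker of it.

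The starts of these genes are shown first, because several granule genes are known targets of cyclic AMP signalling through the cAMP response element (CRE, TGACGTCA) and of repression by REST through its RE1 element. RefSeq promoters (build GRCh38.p14, 250 bases before to 50 bases after the annotated start) were matched by symbol for 8 of the 10 genes, and CHGB and SCG2 were not matched. The 250 bases upstream of the start are given for CHGA and CPE, the most abundant of the genes in H82, and for CALCA, the most abundant of them in H211 after CPE. The RefSeq starts of CHGA, CPE and CALCA lie inside the spans that GENCODE gives these genes. So do those of SCG3, SCG5, PCSK1 and VGF. The matches marked below in CHGA and CPE thus fall within the GENCODE span of the gene, and that in CALCA does not. Sequences run 5′ to 3′ along the gene, and capitals mark the CRE or its half-site TGACG on either strand.
CHGA (chr14:92922900-92923149, plus strand): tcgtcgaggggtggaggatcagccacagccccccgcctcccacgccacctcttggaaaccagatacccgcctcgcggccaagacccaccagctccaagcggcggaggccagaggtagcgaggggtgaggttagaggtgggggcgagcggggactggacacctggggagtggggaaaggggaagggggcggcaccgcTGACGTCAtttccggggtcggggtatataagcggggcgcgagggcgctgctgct
CPE (chr4:165378758-165379007, plus strand): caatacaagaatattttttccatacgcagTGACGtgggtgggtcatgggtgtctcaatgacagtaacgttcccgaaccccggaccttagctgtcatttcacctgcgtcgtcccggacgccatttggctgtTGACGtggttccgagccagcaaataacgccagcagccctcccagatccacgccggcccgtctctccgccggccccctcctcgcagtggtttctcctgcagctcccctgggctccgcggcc
CALCA (chr11:14972352-14972601, minus strand): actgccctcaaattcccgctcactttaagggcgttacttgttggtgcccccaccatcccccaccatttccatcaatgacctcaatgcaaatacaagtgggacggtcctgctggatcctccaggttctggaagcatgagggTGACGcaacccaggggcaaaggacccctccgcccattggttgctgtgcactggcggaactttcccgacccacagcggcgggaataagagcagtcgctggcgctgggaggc

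The full CRE was found, searching both strands, in the promoters of CHGA, PCSK1 and VGF, that is 3 of 8, and in the promoters of 2.25% of the 27305 genes of the table (1.85% of its 35116 promoters of the same length). Its first base lay at -54, -77 and -79 relative to the start, respectively. The half-site TGACG, which the full CRE contains, was found in 8 of 8 and in 28.4% of all genes (24.6% of promoters). PCSK1 has 2 promoters, and its CRE and half-sites lay in promoter 1, with no match in promoter 2. Around the matches of the other genes the sequences were as follows, again with the match in capitals.
PCSK1 (chr5:96433306-96433337, minus strand): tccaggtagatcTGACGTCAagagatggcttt
VGF (chr7:101165629-101165660, minus strand): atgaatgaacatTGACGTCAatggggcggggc
SCG5 (chr15:32641681-32641709, plus strand): tgcggaggagggTGACGcactagctctcc
PCSK2 promoter 1 (chr20:17225938-17225966, plus strand): agcggagtccgtCGTCAgcagttagcaga
PCSK2 promoter 2 (chr20:17226932-17226960, plus strand): ctggcggactcaCGTCAcccgagctggtg
SCG3 (chr15:51681487-51681515, plus strand): gcgcagtctccgCGTCAcaggaacttcag
Only CHGA, PCSK1 and VGF, of these 8 genes, had the complete 8-base palindrome in this window, and the other promoters shown hold its first 5 bases on one strand or the other.

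RE1 was searched as its 2 parts, TCAGCAC and GGACAGC, on the same strand with their first bases 10 to 20 bases apart. This arrangement occurred in 35 of 35116 promoters (0.0997%), of 32 genes, among them those of SCG3 and VGF. In SCG3 it lay on the gene's strand at bases 10 to 32 after the start, and in VGF on the opposite strand across the start. Both sites are printed 5′ to 3′ along the strand that holds them, so the site of VGF reads opposite to the gene. The 2 parts are in capitals, and their first bases lie 16 bases apart in SCG3 and 10 bases apart in VGF.
SCG3 (chr15:51681512-51681534, plus strand): TCAGCACccacagggcGGACAGC
VGF (chr7:101165560-101165576, plus strand): TCAGCACgctGGACAGC
Of the other motifs, the GC box GGGCGG was found in 7 of 8 (48.3% of all genes, 45.0% of promoters), the E-box CANNTG in 7 of 8 (73.1% and 68.7%) and the TATA box TATAAA in 2 of 8 (3819 of the 27305 genes, 11.5% of promoters), each on either strand. A match is a match of letters, and binding was not measured.

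**Figure D1:**
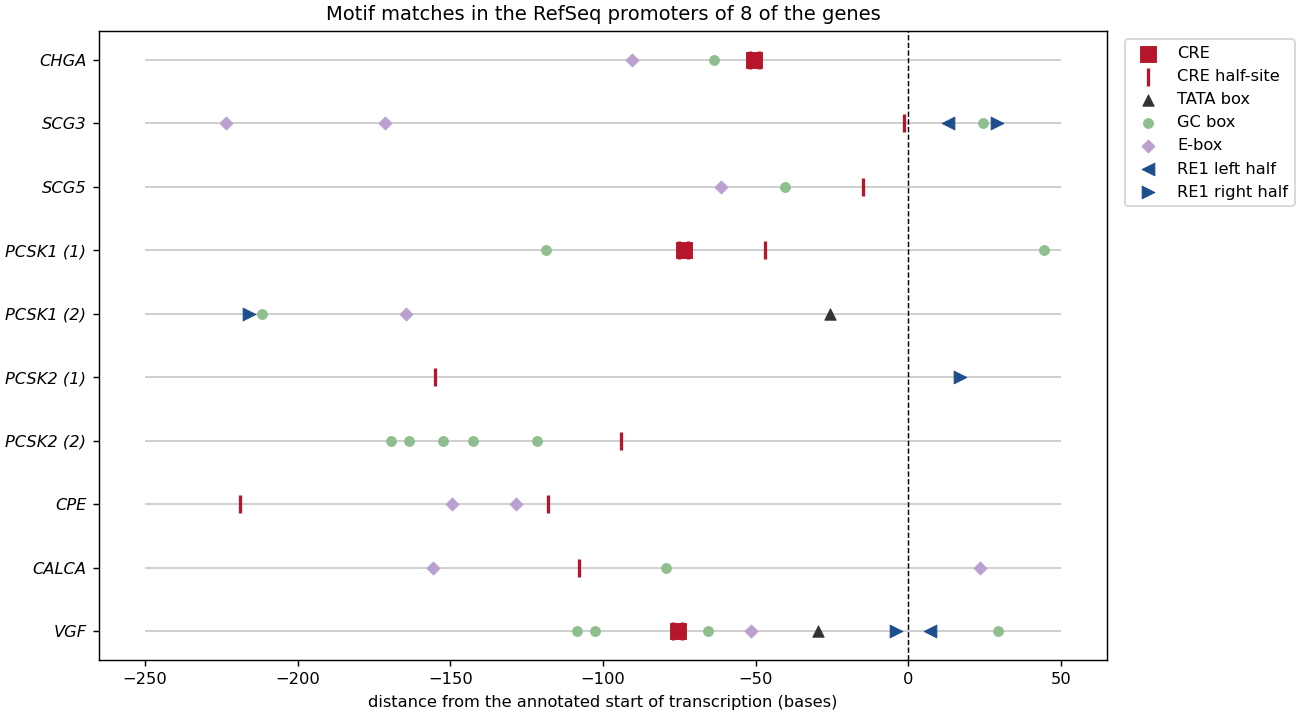
Positions of the motif matches (colours) from 250 bases before to 50 bases after the annotated start (dashed line) in the RefSeq promoters of 8 of the genes. PCSK1 and PCSK2 have 2 promoters each, and the full CRE (red squares) appears in CHGA, PCSK1 and VGF.

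Across libraries of a group, log values correlated at r = 0.9881 to 0.9912 over genes, which are not independent replicates, and column totals lay between 967415 and 1111988. The labelled cell type was checked on its markers: NEUROD1 was at 138, 135 and 139 in the 3 H82 control libraries and between 1.40 and 2.10 in those of H211, and POU2F3 lay between 277 and 285 in H211 and between 1.78 and 2.72 in H82. Transcripts of blood cells varied between libraries. The summed level of 20 blood markers was 42.03 to 56.81 in the H82 controls, 34.53, 37.32 and 144.7 in H82 with ORY-1001, 138.3, 252 and 44.23 in the H211 controls, and 35.18 to 47.83 in H211 with ORY-1001. In the H211 controls, 12 of the 20 markers passed 1 in at least 1 library, S100A8 reached 58.1 in replicate 2, and HBB stayed under 0.3. H82-ORY replicate 3 and H211-Ctrl replicates 1 and 2 had the highest sums. H211-ORY replicate 3 had the lowest sum of its group and another makeup, with fetal globin HBG2 at 0 against 22.3 and 16.8 in the other two, and lysozyme (LYZ) at 16.0 against 0.271 and 0.356. Where it changes a call, a result is also given without these 4 libraries. This set was chosen after seeing the data, and it leaves a single H211 control library, replicate 3, which is assumed to vary like the other groups. Without only the 3 libraries of highest sum, the same calls of granule genes were lost or gained, and SCG5 in H82 was lost as well.

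The vehicle cultures of the lines differed in the levels of 7 granule genes (the plot of levels by library). Of the 10 genes, 8 passed the filter on low values (1 or more in at least 3 libraries) and were tested with limma among 15456 genes. Of these 8, 6 were lower and 1 was higher in H211 than in H82, where 80.5% of all genes tested were called, 40.8% lower and 39.7% higher. The median log2 difference (H211 minus H82) of the 8 genes was -2.79, against -0.02 over all genes tested. The share of the 8 genes called was near that of all genes, and what is given below is the size and direction for each gene. The rule that chose the genes used no value, but they were proposed with results of these data known.

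Among the granins, CHGA (chr14:92923080-92935293) lay at 99.1, 97.2 and 98.0 in the H82 controls and at 0.966, 1.12 and 2.75 in the H211 controls. It was 60.9-fold higher in H82 (adjusted p = 1.45e-10). CHGB (chr20:5911430-5925361), the sister chromogranin, lay at 13.6, 12.8 and 11.3 against 0.503, 0.743 and 2.03, 11.5-fold higher in H82 (adjusted p = 2.38e-07). SCG3 (chr15:51681353-51721031), the secretogranin that ties CHGA to the cholesterol-rich granule membrane, was at 40.9, 46.4 and 46.1 against 0.600, 1.17 and 1.17, and was 45.3-fold higher in H82 (adjusted p = 1.07e-11). All 3 H82 values of each of these granins lay above all 3 H211 values, and such a gap was found for 81.7% of all genes tested, 41.3% lower and 40.4% higher in H211. SCG2 and VGF, whose products are cut into the peptides secretoneurin and TLQP-21, stayed low in both lines: SCG2 (chr2:223596940-223602503) averaged 0.362 ± 0.182 in H82 and 0.771 ± 0.655 in H211 (SD, n = 3; adjusted p = 0.195), and VGF (chr7:101162509-101165593) averaged 0.310 ± 0.124 and 0.451 ± 0.247 and was not tested. Without the 4 libraries named above SCG2 was called higher in H211, by 0.90 on the log2 scale (adjusted p = 0.011), a value that rests on H211-Ctrl replicate 3 alone, the highest of its group for SCG2.

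The convertases were unequal. PCSK2 (chr20:17226107-17484578), prohormone convertase 2, was at 11.2, 12.5 and 12.7 in the H82 controls and at 0.464, 0.234 and 0.596 in the H211 controls, 28.1-fold higher in H82 (adjusted p = 1.2e-10). PCSK1 (chr5:96390415-96434143), which encodes convertase 1/3, did not exceed 0.546 in any library, failed the filter and was not tested. SCG5 (chr15:32641676-32697098) encodes 7B2, the chaperone that PCSK2 needs to mature. Its level was 2.45, 2.83 and 3.21 in H82 and 0.387, 0.713 and 0.423 in H211, 5.57-fold higher in H82 (adjusted p = 0.000145). H82 thus held the mRNA of the PCSK2 and 7B2 pair and little PCSK1, and in H211 all of these were under 1.

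CPE (chr4:165361194-165498320) was the most abundant of the 10 genes in every group. It lay at 223, 227 and 210.7 in the H82 controls and at 28.5, 30.7 and 32.02 in the H211 controls, 7.24-fold higher in H82 (adjusted p = 6.97e-13). CALCA (chr11:14966668-14972354), the precursor gene of calcitonin and of calcitonin gene-related peptide, had the reverse pattern. It was listed at 0, 0.249 and 0.175 in the H82 controls and lay at 6.88, 8.51 and 10.1 in those of H211, 60.1-fold higher in H211 (adjusted p = 1.23e-09). The gene-level value does not separate calcitonin from calcitonin gene-related peptide, and CALCA shares sequence with its paralog CALCB, so the division of reads between them is uncertain. CALCB, looked at for that reason after its values were seen, was also higher in H211 (29.4 ± 1.57 against 3.45 ± 0.287; adjusted p = 7.13e-10).

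In order of level, the H82 controls ran CPE, CHGA, SCG3, CHGB, PCSK2 and SCG5, followed by SCG2, VGF, PCSK1 and CALCA below 0.6. The libraries of CHGB and PCSK2 overlapped, as did those of each neighbour among the last 4, and the other steps did not overlap. The H211 controls ran CPE, CALCA and then CHGA, with no overlap at these steps, and from CHGA down through CHGB, SCG3, SCG2, SCG5, VGF, PCSK2 and PCSK1 every neighbour overlapped. Relative to H82, the H211 level was 1.64% for CHGA, and 43 of the 2011 genes within 0.5 to 2 times the H82 level of CHGA had a lower percentage. The same reading gave 2.21% for SCG3 (83 of 3410 genes lower), 3.56% for PCSK2 (217 of 4460), 8.69% for CHGB (347 of 4505) and 13.8% for CPE (35 of 940). CALCA in H82 stood at 1.66% of its H211 level, where 182 of 4275 genes of like level were lower.

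**Figure D2:**
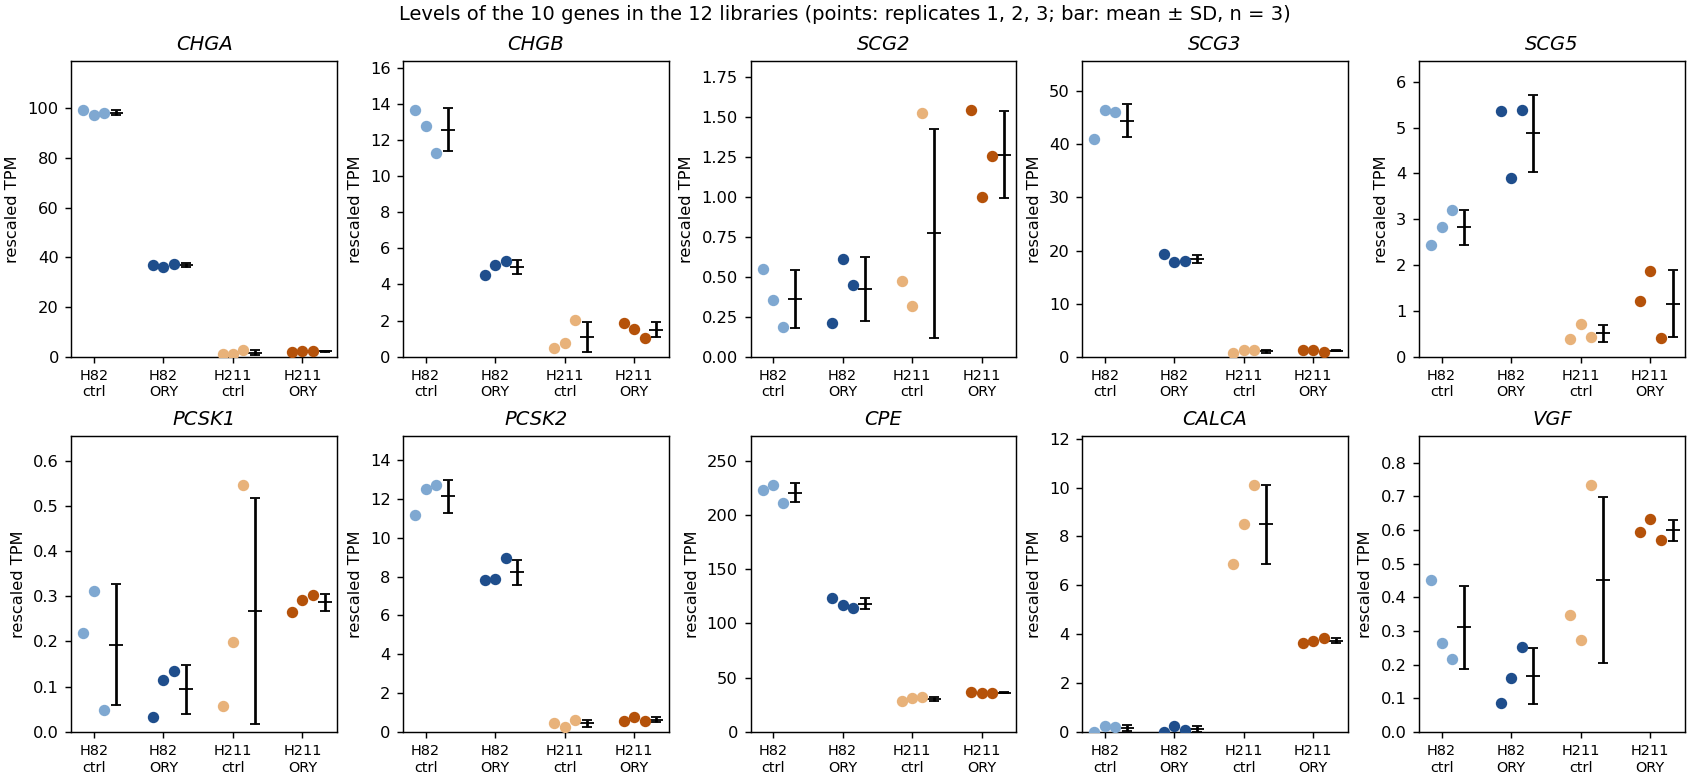
Level of each of the 10 genes in rescaled TPM (y axis, own scale from 0 in each panel) in the 12 libraries (points), with the mean ± SD of each group of 3 beside them. CHGA, CHGB, SCG3, PCSK2 and CPE are high in H82 and step down with ORY-1001, SCG5 steps up there, and CALCA is high in H211 and steps down there.

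With ORY-1001, the abundant granule genes of H82 fell and SCG5 alone among the tested ones rose. Of the 8 tested, 5 were lower (CHGA, CHGB, SCG3, PCSK2 and CPE) and 1 was higher (SCG5). In this comparison 43% of all genes tested were called, 23.9% lower and 19.1% higher, and the median log2 change was -0.70 over the 8 genes against -0.02 over all genes. In all 6 called genes the treated and control libraries did not overlap, which held for 52.3% of all genes tested, 28.7% lower and 23.6% higher.

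CHGA fell from 99.1, 97.2 and 98.0 to 36.8, 35.9 and 37.5. The means, 98.1 ± 0.984 and 36.7 ± 0.778, were 2.67-fold apart (log2 change -1.39, SE 0.187, 95% interval -1.80 to -0.98, adjusted p = 0.000129). CHGB fell from 13.6, 12.8 and 11.3 to 4.52, 5.09 and 5.29, a 2.53-fold difference (log2 change -1.18, SE 0.222, adjusted p = 0.00125). SCG3 fell from 40.9, 46.4 and 46.1 to 19.4, 17.9 and 18.1, or 2.41-fold (log2 change -1.22, SE 0.116, adjusted p = 9.75e-06). The 95% intervals of the 3 granins, -1.80 to -0.98, -1.67 to -0.70 and -1.48 to -0.97, overlapped. SCG2, at 0.547, 0.356 and 0.184 before and 0.213, 0.611 and 0.449 after, overlapped between groups (adjusted p = 0.858).

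PCSK2 fell less: its libraries went from 11.2, 12.5 and 12.7 to 7.83, 7.85 and 8.96, a 1.48-fold difference (log2 change -0.51, SE 0.110, adjusted p = 0.00313). Its 95% interval of -0.75 to -0.27 lay above those of CHGA and SCG3 and overlapped that of CHGB, -1.67 to -0.70. The difference between these genes was not tested. With a pseudocount of 0.1 in place of 1, PCSK2 lost its call (log2 change -0.56, adjusted p = 0.0828). SCG5, the chaperone gene of PCSK2, moved the other way, from 2.45, 2.83 and 3.21 to 5.36, 3.91 and 5.38. The means were 1.73-fold apart (log2 change 0.61, SE 0.223, adjusted p = 0.0445), and the call was lost in 14 of 25 alternatives, with adjusted p up to 0.173. It was lost when any of H82-Ctrl replicates 1, 2 and 3, H82-ORY replicates 1 and 3, H211-Ctrl replicates 1, 2 and 3 or H211-ORY replicate 1 was left out, with a log2 change of 0.54 to 0.68.

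CPE fell from 223, 227 and 210.7 to 123, 117 and 114. This 1.87-fold difference had the smallest SE of the 8 genes (log2 change -0.89, SE 0.0495, adjusted p = 2.24e-07), and CPE remained the most abundant of the genes. CALCA overlapped between the groups, with no value above 0.25 (adjusted p = 0.820). PCSK1 averaged 0.193 ± 0.134 before and 0.0938 ± 0.0545 after, and VGF 0.310 ± 0.124 and 0.165 ± 0.0838. In a fit of 32093 genes with no filter on low values neither was called, with adjusted p = 0.627 and 0.407.

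**Figure D3:**
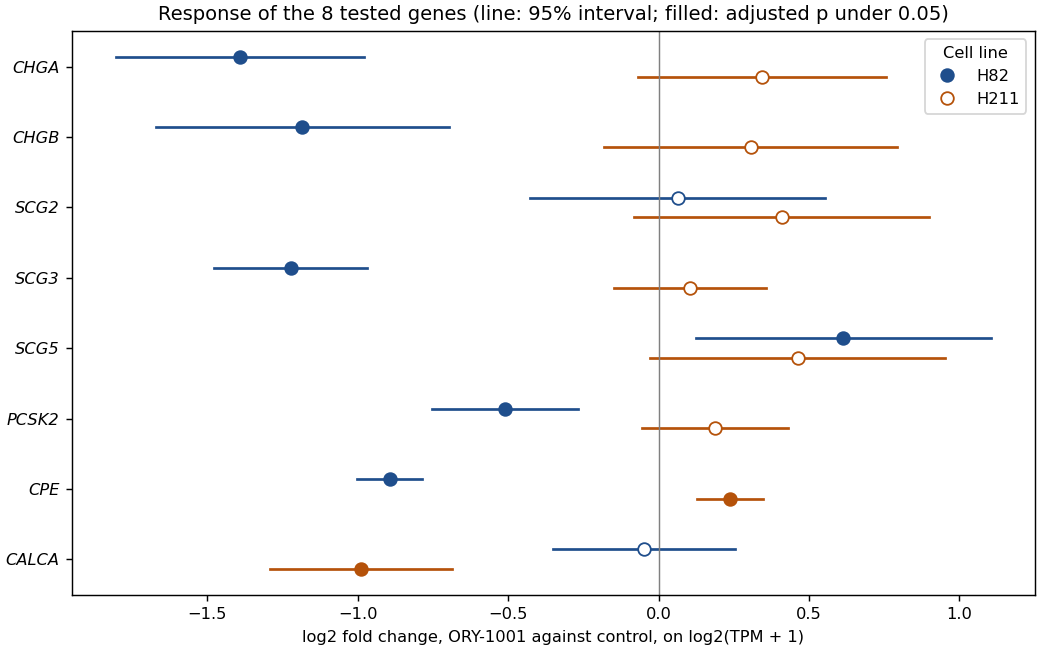
Log2 fold change with ORY-1001 against control (x axis, on log2(TPM + 1)) of the 8 tested genes in H82 (blue) and H211 (orange), with 95% intervals; filled points have an adjusted p under 0.05. The 5 called lower lie left of 0 in H82, where SCG5 is at 0.61, and in H211 CPE is at 0.24 and CALCA at -0.99.

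Summed over the 10 genes, the level in H82 was 392 ± 8.79 in the controls and 192 ± 4.78 with ORY-1001 (SD, n = 3). The composition of the sum shifted with it. CPE made up 56.3% of the sum in the controls and 61.4% in the treated libraries, CHGA 25.1% and 19.1%, and SCG3 11.4% and 9.60%. PCSK2 made up 3.10% and 4.28%, and SCG5 0.723% and 2.54%. The granule transcripts of treated H82 were thus fewer in sum and held a lower share of chromogranin and a higher share of carboxypeptidase, PCSK2 and 7B2 mRNA. The 7B2 part rests on SCG5, whose rise lost its call in 14 of 25 alternatives. In H211 the sum was 45.0 ± 6.39 in the controls and 48.5 ± 1.13 with ORY-1001, with CPE at 68.1% and 74.3% and CALCA at 18.8% and 7.71%. These sums and shares are a description and were not tested.

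**Figure D4:**
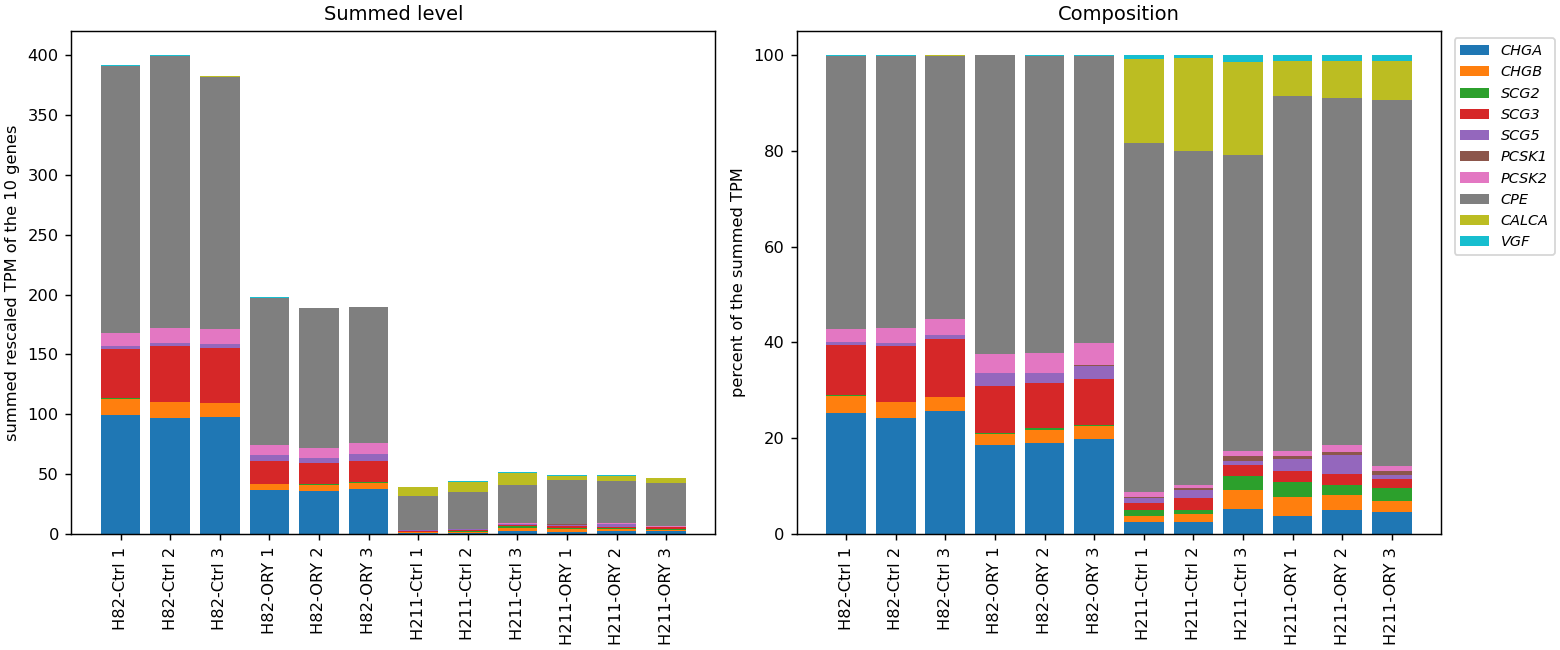
Summed rescaled TPM of the 10 genes in each library (left, from 0) and the percent that each gene contributes to the sum (right). The H82 controls stand at 383 to 400.1 and the treated H82 libraries at 189 to 198, and CALCA (olive) is visible only in H211.

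In H211, of the 8 tested genes, CPE rose and CALCA fell with ORY-1001. The comparison called 18.6% of all genes tested, 8.95% higher and 9.61% lower, and the median log2 change was 0.27 over the 8 genes against -0.00 over all genes. CALCA went from 6.88, 8.51 and 10.1 to 3.65, 3.70 and 3.85, with no overlap. The means, 8.49 ± 1.61 and 3.73 ± 0.106, were 2.27-fold apart (log2 change -0.99, SE 0.137, adjusted p = 0.00056), and with a pseudocount of 0.1 the call was lost (adjusted p = 0.139). CALCB, its paralog, averaged 29.4 ± 1.57 before and 28.9 ± 0.499 after (adjusted p = 0.930). CPE went from 28.5, 30.7 and 32.02 to 36.5, 35.5 and 36.0, a 1.18-fold difference (log2 change 0.24, SE 0.0495, adjusted p = 0.00701). In both genes the groups did not overlap, which held for 35.4% of all genes tested, 17% higher and 18.4% lower. With the 4 libraries named above left out, CPE was not called (log2 change 0.16, adjusted p = 0.237), nor without the 3 of highest sum (0.16, adjusted p = 0.176), and CALCA remained called.

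The other tested genes stayed within about 3 in H211 and their groups overlapped. CHGA was at 0.966, 1.12 and 2.75 before and 1.90, 2.44 and 2.21 after (log2 change 0.34, adjusted p = 0.241). CHGB was at 0.503, 0.743 and 2.03 and then 1.89, 1.54 and 1.04 (adjusted p = 0.391), and SCG2 at 0.475, 0.315 and 1.52 and then 1.54, 0.999 and 1.25 (adjusted p = 0.241). In each of these granins H211-Ctrl replicate 3 was the high control. It was the highest of the 3 controls for 9 of the 10 genes, where it was the highest for 35.6% of all genes tested, and INSM1 was 9.56 there against 6.47 and 6.10. Without it, CHGA (log2 change 0.64, adjusted p = 0.000392), CHGB (0.61, adjusted p = 0.0207) and SCG2 (0.69, adjusted p = 0.0178) were also called higher, for 4 in all. These added calls rest on control replicates 1 and 2, which had summed blood markers of 138.3 and 252, against 44.23 in replicate 3. In the fits that kept replicate 3 as the only control, the log2 changes of CHGA, CHGB and SCG2 reached -0.25, -0.30 and -0.16. The direction of these changes in H211 thus depended on which controls were used. SCG5, at 0.387, 0.713 and 0.423 and then 1.21, 1.87 and 0.397, was not called (adjusted p = 0.184), and without H211-ORY replicate 3, its low treated library, it was (log2 change 0.75, adjusted p = 0.0161). SCG3 and PCSK2 averaged 0.981 ± 0.330 and 0.431 ± 0.183 in the controls 1.111 ± 0.132 and 0.624 ± 0.114 with ORY-1001 (adjusted p = 0.594 and 0.279).

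The response differed between the lines for 6 of the 8 tested genes (log2 effect in H211 minus that in H82), 5 higher and 1 lower, where 32.1% of all genes tested were called, 17.8% higher and 14.3% lower. The median difference was 0.92 over the 8 genes and 0.01 over all genes. Of the 6, CPE alone lay above 20 in every library of both lines, and its effects of -0.89 and 0.24 differed by 1.13 (SE 0.0700, adjusted p = 9.77e-07). For CHGA the difference was 1.74 (adjusted p = 0.000567), for CHGB 1.49 (adjusted p = 0.00412), for SCG3 1.33 (adjusted p = 0.000132) and for PCSK2 0.70 (adjusted p = 0.00577). These 4 genes had H211 values of at most 2.75, so that the difference sets a fall from high levels in H82 beside low levels in H211. CALCA differed by -0.94 (adjusted p = 0.00365) with the reverse imbalance, and not with a pseudocount of 0.1 (adjusted p = 0.359). SCG2 and SCG5 were not called, with differences of 0.35 (95% interval -0.35 to 1.04) and -0.15 (-0.84 to 0.54).

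The genes around these 10 were read from lists of related function. Among other propeptide processing enzymes and their inhibitors, 18 of 24 listed genes were tested, of which 2 were higher and 9 lower in H82 with ORY-1001, and 2 higher and 4 lower in H211. With any 1 library left out these counts ran from 1 to 3, 7 to 10, 2 to 2 and 4 to 5, and without the 4 libraries 1 was higher in each line. Over all genes tested, 19.1% were higher and 23.9% lower in H82, and 8.95% and 9.61% in H211. CPD, the carboxypeptidase of the trans-Golgi network that overlaps CPE in activity, fell from 44.2 ± 0.540 to 24.7 ± 1.81 in H82 (adjusted p = 5.5e-06) and stood at 7.26 and 7.68 in H211 (adjusted p = 0.528). FURIN, the Golgi convertase of constitutively secreted proteins, was 10.6-fold higher in the H211 than in the H82 controls and fell in H211 from 45.8 ± 1.05 to 24.1 ± 1.39 (adjusted p = 3.96e-05). PCSK5, a related convertase, fell in both lines, from 6.29 to 3.81 in H82 (adjusted p = 0.00014) and from 7.55 to 2.09 in H211 (adjusted p = 3.87e-07). CTSB, a cysteine protease, fell from 64.6 to 35.5 in H82 (adjusted p = 4.81e-07) and from 103 to 82.3 in H211 (adjusted p = 0.00163), the latter not called without the 4 libraries (adjusted p = 0.173). CYB561, the granule cytochrome that supplies electrons for peptide amidation, was 54.2-fold higher in the H211 controls, at 34.9 ± 2.42 against a low 0.645 ± 0.215 in H82. PAM, which amidates peptides such as calcitonin gene-related peptide, and PCSK1N, the proSAAS inhibitor of PCSK1, were chosen after their values were seen. PAM fell from 32.4 to 22.9 in H82 (adjusted p = 0.000472) and from 18.9 to 14.6 in H211 (adjusted p = 0.0107), and PCSK1N from 4.70 to 2.79 in H82 (adjusted p = 0.00674).

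Of 30 genes of granule biogenesis, membrane and release, 21 were tested. In H82, 0 were higher and 9 lower, and in H211, 0 were higher and 4 lower. The count of lower genes ran from 7 to 11 in H82 and from 1 to 4 in H211 with any 1 library left out, and the latter was 0 without the 4 libraries. At most 1 gene was called higher in either line in these fits. The called genes of this list, 9 and 4 of 21, are near the 43% and 18.6% of all genes tested that were called in either direction. All of those in the list were lower, where 23.9% of all genes tested were called lower in H82 and 9.61% in H211. PTPRN, the granule membrane protein also called IA-2, fell 12.3-fold in H82, from 5.88 ± 0.815 to 0.478 ± 0.132 (log2 change -2.22, adjusted p = 5.99e-07). It was at 0.132 ± 0.0428 in the H211 controls. SYT7, a calcium sensor of granule exocytosis, fell from 12.1 to 5.57 (adjusted p = 6.77e-05), and VAMP4, which takes part in granule maturation, from 15.6 to 9.24 (adjusted p = 7.13e-05). CADPS, which primes granules for release, was 57.1-fold higher in H82 than in H211 controls, at 49.5 ± 1.33 against a low 0.867 ± 0.173. The 4 called in H211 changed by less: ATP6AP1, an accessory subunit of the proton pump that acidifies granules, went from 228 to 194 (adjusted p = 0.00354), and ARFIP1 and ATP6AP2 were 1.18-fold and 1.15-fold lower (adjusted p = 0.0392 and 0.0417).

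The list medians of the log2 change in H82 were -0.26 for the processing enzymes and -0.16 for granule biogenesis and release, against -0.70 for the 8 granule genes and -0.02 for all genes tested. In H211 they were -0.10 and -0.08, against 0.27 and -0.00.

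**Figure D5:**
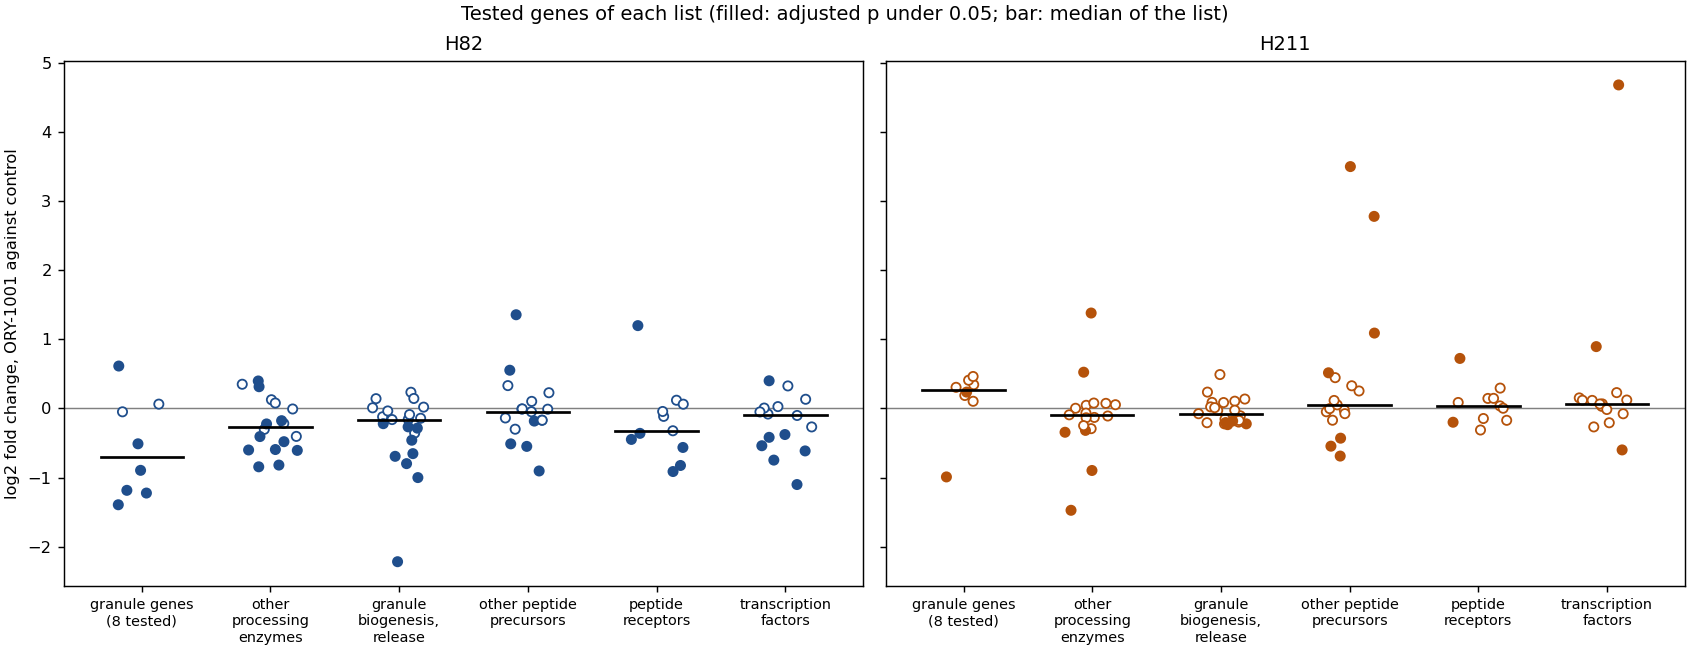
Log2 fold change with ORY-1001 against control (y axis) of every tested gene of 6 lists in H82 (left) and H211 (right), with a bar at each list's median and filled points for an adjusted p under 0.05. The granule genes have a median of -0.70 in H82 and 0.27 in H211, and PTPRN is the lowest point in H82 at -2.22.

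Other peptide precursors, the possible cargo of these granules, were tested for 17 of 45 listed genes, with 2 higher and 4 lower in H82 (1 to 3 and 2 to 4 with any 1 library left out) and 4 higher and 3 lower in H211 (the 3 lower became 0 without the 4 libraries). Of all genes tested, 43% were called in H82 (19.1% higher, 23.9% lower) and 18.6% in H211 (8.95% higher, 9.61% lower). The 2 precursors of highest TPM in the controls were in H211: galanin (GAL) was at 1206 ± 16.7 and neuromedin U (NMU) at 1029 ± 16.3 in its controls, against 18.8 ± 1.99 and 8.78 ± 1.08 in H82 (adjusted p = 1.07e-13 and 3.29e-14). The line with the lower levels of CHGA, SCG3, PCSK2 and CPE had the higher levels of GAL and NMU. Neuropeptide W (NPW) was the reverse, 6.88-fold higher in the H82 controls, at 53.2 ± 3.44 against 7.74 ± 1.28 (adjusted p = 2.02e-10). GAL rose in H82 to 49.6 ± 4.93 with ORY-1001 (2.64-fold, adjusted p = 2.94e-07), where 5 of the granule genes fell. In H211, NPY rose from 0.866 ± 0.486 to 19.6 ± 1.04, NTS from 1.91 ± 0.832 to 18.5 ± 1.08 and NPW to 17.5 ± 0.783 (adjusted p = 1.03e-07, 4.31e-06 and 1.86e-05). In H82, PYY and NMU were 1.47-fold and 1.16-fold lower (adjusted p = 0.02 and 0.0385), calls that were lost in 8 and 18 of 26 alternatives.

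Of 30 genes listed as receptors or receptor partners, 11 were tested, with 1 higher and 5 lower in H82 and 1 higher and 1 lower in H211, the latter both 0 without the 4 libraries. The 5 lower in H82 became 3 without any of H82-Ctrl replicate 3 and H82-ORY replicates 2 and 3. Among all genes tested, 43% were called in H82 (19.1% higher, 23.9% lower) and 18.6% in H211 (8.95% higher, 9.61% lower). RAMP1, the receptor partner through which calcitonin gene-related peptide acts, was 67.2-fold higher in the H82 than in the H211 controls, opposite to CALCA. Its level in the H211 controls was low, at 1.00 ± 0.691, so the size of that fold is uncertain. In H82, RAMP1 fell from 67.3 ± 0.859 to 37.7 ± 3.60 (adjusted p = 0.00593). CALCRL, the receptor that RAMP1 partners, averaged under 0.5 in every group, and it was chosen after its values were seen. SSTR2, a somatostatin receptor, rose from 2.34 to 6.57 in H82 (adjusted p = 0.000108), GPR37 fell from 13.1 to 6.46 (adjusted p = 4.5e-06), and RAMP2 was 3.82-fold higher in the H82 controls. In H211 OXTR, the oxytocin receptor, rose from 2.67 to 5.13 (adjusted p = 0.00375), and SORT1 fell from 20.1 to 17.3 (adjusted p = 0.038).

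Of 20 transcription factors known to act on granule genes, 15 were tested, with 1 higher and 6 lower in H82 and 2 higher and 1 lower in H211. The lower count in H82 was 6 to 7 with any 1 library left out, and the higher one 0 to 1, while the lower one in H211, 0 to 2 then, was 0 without the 4 libraries. The factors called, 7 and 3 of 15, are near the 43% and 18.6% of all genes tested that were called in either direction. By direction, 19.1% of all genes tested were higher and 23.9% lower in H82, and 8.95% and 9.61% in H211. INSM1, a neuroendocrine factor, fell in H82 from 25.7, 24.1 and 21.7 to 14.5, 16.4 and 17.4 (adjusted p = 0.00859) and was not called in H211 (adjusted p = 0.501), while NEUROD1 was not called in either line (adjusted p = 0.499 and 0.391). REST, which binds RE1, was at 2.11 ± 0.289 and 2.18 ± 0.455 in H82 and at 4.52 ± 0.505 and 3.78 ± 0.417 in H211, with no call in either line (adjusted p = 0.898 and 0.309). It was higher in the H211 than in the H82 controls, by 0.83 on the log2 scale (adjusted p = 8.18e-05). CRTC1, a coactivator of CREB at the CRE, fell in H82 from 23.9 ± 1.20 to 13.8 ± 0.628 (adjusted p = 6.27e-05) and was at 9.54 and 11.4 in H211 (adjusted p = 0.107). MYT1 and SP1 also fell in H82, 2.42-fold and 1.59-fold (adjusted p = 7.48e-05 and 0.00022). In H211 EGR1 rose 27.7-fold, from 12.1 to 336, STAT3 rose from 44.1 to 82.8, and ST18 fell from 14.9 to 9.50 (adjusted p = 2.62e-07, 3.11e-06 and 0.0322).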

How the data were processed

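RNA was sequenced in 12 libraries, 3 in each of 4 groups taken from the sample labels. Libraries were made from oligo(dT)-selected mRNA and read as pairs on an Illumina HiSeq, per the labels' protocols. The submitters' processing notes name the hg38 build and, with no role for any of them, sleuth 0.30.0, Salmon 1.1.0, Subread 1.5.2 with featureCounts, STAR 2.5.2b, R 4.0.4, Trimmomatic 0.36 and DESeq2. The deposited values are a TPM-like signal; its column totals differ, so the authors seem to have rescaled the libraries. The log-scale tests planned for plain TPM were kept for these values. Read counts were not analysed here, so depth is unknown and no counting interval is given.

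Values were analysed as log2(TPM + 1), which understates changes of low genes. Genes at 1 or more in at least 3 libraries were kept (15456 of 56508). One limma 3.58.1 model in R 4.3.3 (4 group means, eBayes with a trend) was fitted to all 12 libraries. P-values are two-sided, Benjamini-Hochberg adjusted over all genes tested, and called under 0.05. Folds are ratios of group means. The fit was tested on simulated data. Dates stand in place of symbols for 27 entries, of which 21 were tested and none is named.

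The 10 genes, and the lists of processing enzymes, granule biogenesis and release, peptide precursors, receptors, transcription factors, subtype, blood, and fibroblast and endothelial markers, were chosen with earlier results of these data known. The naming rule took all 10 genes and, from each of the 5 pathway lists in each comparison, up to 3 called genes by smallest p with a group mean of at least 5, plus REST, INSM1 and NEUROD1; another gene of the rule is not reported here. Named outside it, after their values were seen, were PAM, PCSK1N, CALCB and CALCRL, and, for the check of labels and libraries, the markers POU2F3, SYP, HBB, HBG2, LYZ, S100A8, DCN, COL3A1 and CDH5. Gene positions are from GENCODE release 29 on GRCh38 and promoters from RefSeq (GRCh38.p14). In all, 26 alternatives were run, covering the pseudocount, filter, scaling, variance prior, library weights, samples fitted, replicate block and left-out libraries. Summaries and figures were made with pandas 2.3.3 and matplotlib 3.10.9 in Python 3.11.15.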

Additional observations from a re-analysis of the deposited data

Results flagged for a closer look

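For 34 of the genes named here the drug effect differed between the lines by limma's interaction term (log2 effect in H211 minus that in H82, adjusted p under 0.05). Over all genes tested, 32.1% were called in this comparison. Some of the 34 were named because they were called in it, so their count is not a result about them. Of the 34, 6 are granule genes: CHGA at 1.74, CHGB at 1.49, SCG3 at 1.33, CPE at 1.13, PCSK2 at 0.70 and CALCA at -0.94. Among processing enzymes and inhibitors the difference was 0.89 for CPD, 0.64 for PCSK1N, 0.53 for CTSB, -0.68 for FURIN and -0.87 for PCSK5. Among genes of granule biogenesis and release it was 2.30 for PTPRN, 1.02 for SYT7, 0.70 for CADPS and 0.66 for VAMP4. Peptide precursors gave 3.51 for NPY, 2.55 for NTS, 1.26 for NPW, 0.63 for PYY, 0.53 for CALCB and -1.53 for GAL. The list of receptors and receptor partners gave 1.06 for GPR37, 1.05 for OXTR, 0.97 for RAMP1, 0.65 for RAMP2 and -1.11 for SSTR2. For the transcription factors it was 4.95 for EGR1, 1.09 for MYT1, 1.00 for STAT3, 0.98 for CRTC1, 0.69 for INSM1 and -0.93 for ST18, and for the markers DCN and SYP 3.63 and 0.57. With a pseudocount of 0.1 the calls of CALCA, CADPS, PYY, SSTR2, RAMP1, MYT1 and PCSK1N were lost, with adjusted p between 0.0631 (SSTR2) and 0.359 (CALCA). Without the 4 libraries named in the report for their blood transcripts, those of FURIN, CADPS, PYY, SSTR2, RAMP1, INSM1, PCSK1N and SYP were lost, with adjusted p between 0.0531 (SSTR2) and 0.340 (PCSK1N). With a replicate block PYY (adjusted p = 0.0973), PCSK1N (0.078) and INSM1 (0.0605) were not called. Over all alternatives the call was lost in 17 of 25 for PYY, 15 of 24 for PCSK1N and 11 of 25 each for CADPS and CALCB. PTPRN, SYT7, SSTR2, PYY and MYT1 averaged under 0.6 in both groups of H211. In both groups of H82, NPY averaged under 0.1, and CALCA, NTS and OXTR under 0.6.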

How the results depend on the processing

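Over 816 values of the granule genes under the alternatives, 791 kept the side of the threshold, 19 lost and 6 gained a call, and 0 changed the sign of a called value. Uncalled values count as kept even where their sign changed, as for CHGA in H211, whose log2 change ran from -0.25 to 0.64. For the other named genes, 2505 of 2680 kept the side of the threshold, 164 lost and 11 gained a call. The 5 granule genes called lower in H82 were 5 in every fit that left out a library. The SCG5 rise gave 0 higher in place of 1 with a pseudocount of 0.1, no filter, equal totals without mitochondrial genes or array weights. The same held without the 3 libraries of highest summed blood markers, and the count was 0 to 1 when a library was left out. With genes at 5 or more the count was also 0, because SCG5 did not pass that filter and was not tested. In H211 the genes called lower went from 1 to 0, as did the difference between the lines called lower, with a pseudocount of 0.1. Those called higher in H211 were 1 to 4 when a library was left out and 0 without the 4 libraries named for their blood transcripts or the 3 of highest sum. Leaving out the 4 left 374 of all genes called higher and 291 lower in H211 (1383 and 1485 with all libraries), 1745 and 1293 for the difference (2747 and 2209), and 2 granule genes higher in the H211 controls. Leaving out the 3 gave 439 and 378, 1816 and 1368, and 2, respectively. Fewer libraries enter these fits, and the cause of the change was not tested. Depth is unknown, and values near 0 carry an error that cannot be given.

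Replicate numbers are shared by the groups, but the same numbers did not deviate together: correlations over 6 pairs were -0.08 to 0.045, 0 of them over 0.1, and 1 of 6 controls correlated best with its own number. With a replicate block, 2802 genes were higher and 3417 lower in H82, 1072 and 1132 in H211, 2394 and 1931 for the difference, and 6106 and 6279 between the controls. No call of a granule gene changed under the block.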

Other observations

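Of 8 small cell lung cancer subtype and neuroendocrine markers, 7 were tested, with 0 higher and 5 lower in H82 with ORY-1001 and 2 higher and 0 lower in H211. Across all genes tested, 43% were called in H82 (19.1% higher, 23.9% lower) and 18.6% in H211 (8.95% higher, 9.61% lower). Synaptophysin (SYP), a protein of the small clear vesicles that neuroendocrine cells hold beside dense-core granules, was at 168, 161 and 171 in the H82 controls and at 134, 131 and 137 with ORY-1001 (log2 change -0.31, adjusted p = 0.0332, a call lost in 11 of 26 alternatives with adjusted p up to 0.0895). In H211 it was at 3.03, 2.74 and 3.66 and then 3.41, 4.93 and 3.61 (adjusted p = 0.113). The fall of SYP in H82 is smaller on the log2 scale than those of CHGA, CHGB and SCG3, though no test compared the genes.

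Of 20 blood markers, 10 were tested, with 2 higher in H82 and 0 in H211. Among all genes tested, 19.1% were higher in H82 and 8.95% in H211. Of 9 fibroblast and endothelial markers, 2 were tested, and 1, DCN, was higher in H211 with ORY-1001, at 68.1, 62.1 and 61.5 against 3.91, 3.95 and 4.42 in the controls (adjusted p = 6.08e-07), while COL3A1 stayed under 0.4 in all libraries and CDH5 under 0.03. The summed level of the 9 markers was 64.97 to 71.49 there and 6.31 to 7.49 in the controls, most of it DCN.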
